A study of Arabidopsis thaliana with 6 samples.

Results

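The genes described here are rpoA, rpoB, rpoC1 and rpoC2, which the plastid genome of the model plant Arabidopsis thaliana carries for the subunits of its own RNA polymerase. They were found as probe sets that the array's gene table pairs with exactly 1 gene bearing one of these symbols. All 4 genes were found, with 1 probe set each, among 22746 probe sets compared, of which 13513 were paired with 1 gene and 69 of those with a plastid-encoded gene. Affymetrix arrays were hybridised with RNA of rosette leaves from untreated plants 3 weeks old, which grew at 23 °C under 12 h of light a day (12 h dark). The atrap group (3 arrays) carried the mutation that the labels call atrap, and the WT group (3 arrays) was wild type. The labels give no allele, locus or accession of Arabidopsis for either group. They call the arrays biological replicates without saying whether plants were pooled, so p-values measure the spread between these arrays. All values are log2 signals made by the authors with RMA, a method that corrects background, equalises the distribution of probe signals over the arrays and summarises the probes of a set.

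Chloroplast genes are read by 2 kinds of RNA polymerase. The bacterial-type enzyme, PEP, has a core encoded in the plastid: the α subunit (rpoA) assembles the core, the β subunit (rpoB) and the β′ subunit (rpoC1) form the catalytic centre, and the β″ subunit (rpoC2) completes it. Nuclear sigma factors guide PEP to promoters, and further nuclear proteins bind the core in light-grown leaves. PEP transcribes most photosynthesis genes of green leaves. The phage-type enzyme, NEP, is encoded in the nucleus and transcribes rpoB, rpoC1 and rpoC2 as an operon, so that the plastid core of PEP depends on NEP. The rpoA gene lies elsewhere, at the end of the S10 cluster of ribosomal protein genes. RAP, also named ATRAP in the table of gene names used here, is a plastid protein needed for the maturation of 16S ribosomal RNA.

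RAP read 6.72, 6.35 and 6.51 in atrap leaves, against 7.87, 7.44 and 7.76 in WT leaves, and it was lower in every atrap array. The labels do not place the mutation relative to the RAP probes, and so a lower signal is a limited check of the genotype. Of 26 markers of leaf, root and flower cell types, 7 had a probe set paired with 1 gene. Leaf mesophyll had 3 of them. RCA, which activates Rubisco, and PRK, a Calvin-Benson enzyme, read 13.86 to 14.94 over the 6 arrays and did not pass the test, whereas LHCB4.3, a photosystem II antenna protein, was lower in atrap by a log2 fold change of -0.77 (limma, adjusted p = 0.0405). The root-hair expansins EXPA7 and EXPA18 read 5.13 to 5.92, and the guard-cell factor FAMA 6.85 to 7.17. TRY, which acts in trichome patterning, was lower in atrap by a log2 fold change of -0.45 (limma, adjusted p = 0.0435). Poly-A spike-in controls, added RNAs of known sequence, averaged 6.51 ± 0.08 in atrap and 6.90 ± 0.16 in WT (24 probe sets, SD, n = 3 each). The actin difference between 3′ and 5′ probe sets, which reflects RNA integrity and labelling, was 2.29 ± 0.01 in atrap and 2.65 ± 0.04 in WT. The same difference for GAPDH overlapped, at 0.32 ± 0.05 in atrap and 0.34 ± 0.07 in WT. The spike-in, actin, LHCB4.3 and TRY values moved with genotype, as did the rises described below, and their part in those rises was not tested.

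Signals of rpoC1 and rpoC2 rose 3.02-fold and 2.62-fold in atrap leaves, the highest rises among the 69 plastid-encoded genes measured. The signal of rpoA rose 1.37-fold, and rpoB, with a log2 fold change of 0.16, did not pass the test. Thus 3 of the 4 genes were higher in atrap and 0 lower at an adjusted p of 0.05 (limma, Benjamini-Hochberg over all probe sets). Over the whole array 6.7% of probe sets were higher by the same rule and 6.41% lower (13.1% in all). Arrays of the 2 genotypes did not overlap for the same 3 genes, with atrap above, as was so for 19.1% of all probe sets (16.5% did not overlap with WT above, 35.6% in all). A test that shares no variance between probe sets called 48 on the whole array and 0 of the 4 genes, with adjusted p of 0.0585 for rpoC1, 0.0511 for rpoC2 and 0.0826 for rpoA (unmoderated linear model). In leaf RNA taken as a whole, a different number of cells of a type and a different amount of RNA per cell cannot be told apart. Whether plastid RNA was labelled equally well in the 2 genotypes was not tested, so the rises are of signal rather than of transcript amount.

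The gene for the β′ subunit, rpoC1, read 11.72, 11.12 and 11.39 in the atrap arrays, against 9.78, 9.80 and 9.88 in the WT arrays. Every atrap array lay above every WT array, and the nearest pair of arrays was 1.24 log2 units apart. The means were 11.41 ± 0.30 in atrap and 9.82 ± 0.06 in WT (SD, n = 3 each). The log2 fold change was 1.59 ± 0.15 (SE), with a 95% interval of 1.25 to 1.94, or 3.02-fold (limma, adjusted p = 0.00457). The atrap arrays were spread more widely than the WT arrays, and wider than the median SD of 0.10 of all probe sets in atrap. Without atrap replicate 1, the array with the highest rpoC1 signal, the log2 fold change was 1.44. Of the 22746 probe sets, 43 had a larger rise, and none of them belonged to another of the 69 plastid-encoded genes, among which rpoC1 ranked 1.

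The gene for the β″ subunit, rpoC2, read 9.64, 9.62 and 9.44 in the atrap arrays, against 8.05, 8.29 and 8.21 in the WT arrays. The genotypes did not overlap, and the lowest atrap array stood 1.16 log2 units above the highest WT array. The means were 9.57 ± 0.11 in atrap and 8.18 ± 0.12 in WT (SD, n = 3 each). The log2 fold change was 1.39 ± 0.10 (SE), with a 95% interval of 1.16 to 1.61, or 2.62-fold (limma, adjusted p = 0.00308). Its spread was alike in both genotypes, and 7 of all probe sets had a smaller p. By size of rise it ranked 2 among the 69 plastid-encoded genes, and 66 of all probe sets had a larger rise.

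The gene for the α subunit, rpoA, read 13.33, 13.11 and 13.19 in the atrap arrays, against 12.77, 12.81 and 12.68 in the WT arrays. The genotypes did not overlap, and the gap between them was 0.31 log2 units. The means were 13.21 ± 0.11 in atrap and 12.75 ± 0.07 in WT (SD, n = 3 each). The log2 fold change was 0.46 ± 0.09 (SE), with a 95% interval of 0.26 to 0.66, or 1.37-fold (limma, adjusted p = 0.0190). It ranked 16 among the 69 plastid-encoded genes. The call was lost without atrap replicate 1, atrap replicate 3, WT replicate 2 or WT replicate 3, at adjusted p of 0.0802, 0.0669, 0.0655 and 0.0552 (limma). The log2 fold change then ran from 0.40 to 0.49. The rpoA probe set was among the brightest on the array, with 99.1% of probe sets dimmer in WT, and compression of bright signals was not tested.

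The gene for the β subunit, rpoB, read 4.82, 5.09 and 4.70 in the atrap arrays, against 4.70, 4.51 and 4.91 in the WT arrays. The genotypes overlapped, and both means, 4.87 ± 0.20 in atrap and 4.71 ± 0.20 in WT (SD, n = 3 each), lay low in the range of the array. The log2 fold change was 0.16 ± 0.14 (SE), with a 95% interval of -0.16 to 0.48 (limma, adjusted p = 0.492). The interval holds no rise as large as that of rpoC1 or rpoC2. Only 27.3% of all probe sets were dimmer than rpoB in WT, and RMA compresses the changes of dim probe sets, so the interval bounds this signal rather than the amount of rpoB transcript.

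**Figure D1:**
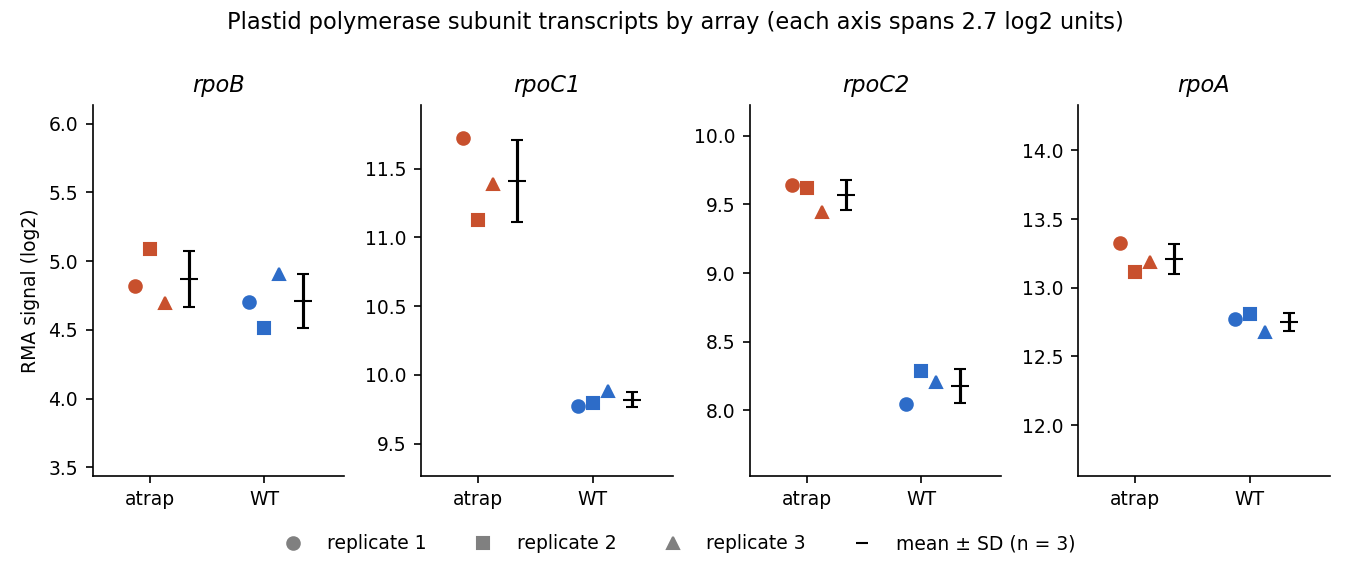
RMA signal (log2, vertical axes, each spanning the same number of log2 units) of the 4 polymerase genes in each array, atrap in red on the left and WT in blue on the right of each panel, with symbols for the replicates and black bars for the mean ± SD. The atrap arrays of rpoC1 (11.12 to 11.72) and rpoC2 (9.44 to 9.64) lie well above their WT arrays, those of rpoA lie above by a smaller gap of 0.31, and those of rpoB overlap.

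Whether the genes changed by unequal amounts was asked within each array, where the signal of one gene was subtracted from that of another and the difference was compared between genotypes. A total of 6 pairs were compared with exact permutation tests over the arrays, in which 3 against 3 cannot go below a two-sided p of 0.1 and the pairs cannot pass 0.05. The rpoC1 minus rpoB difference was 6.91, 6.03 and 6.70 in atrap, against 5.07, 5.28 and 4.97 in WT. It was larger in every atrap array, by 1.43 on average (exact permutation p = 0.1, adjusted 0.15 over the 6 pairs). The rpoC2 minus rpoB difference was likewise larger in every atrap array, by 1.23 (exact permutation p = 0.1, adjusted 0.15). Since rpoB was dim, where RMA compresses changes, these differences largely restate the rises of rpoC1 and rpoC2 and do not measure unequal change of the transcripts.

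The rpoC1 minus rpoA and rpoC2 minus rpoA differences were also larger in every atrap array, by 1.14 and 0.93 (exact permutation p = 0.1 each, adjusted 0.15). Because rpoA was among the brightest probe sets and compression of bright signals was not tested, these differences compare signals rather than transcript amounts. The rpoC1 minus rpoC2 difference was 2.08, 1.50 and 1.95 in atrap, against 1.73, 1.51 and 1.67 in WT. These overlapped, with atrap replicate 2 the lowest of all 6 arrays, and the mean difference of 0.21 did not exceed the spread (exact permutation p = 0.4, adjusted 0.4). The rpoA minus rpoB difference overlapped too, at 8.34 ± 0.28 in atrap and 8.05 ± 0.26 in WT (SD, n = 3 each, exact permutation p = 0.3, adjusted 0.36).

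The neighbours of the genes in the plastid genome were examined next. Beyond rpoC2 lies rps2, for a protein of the small plastid ribosomal subunit, followed by the ATP synthase genes atpI, atpH, atpF and atpA. Moving from rpoC1 to rps2, the log2 fold change was 1.59, then 1.39 for rpoC2, then 0.83 ± 0.13 for rps2 (SE; limma, adjusted p = 0.0124). It was -0.34, 0.17, 0.15 and -0.21 for atpI, atpH, atpF and atpA, and 0 of these 4 passed (limma, adjusted p from 0.157 to 0.547). On the other side of rpoB, the next protein-coding gene, petN of the cytochrome b6f complex, had a log2 fold change of 0.0026 ± 0.16 (SE). The genes that passed were thus 3 adjacent genes, bounded by atpI on one side and by the dim rpoB on the other.

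Measured genes of the S10 cluster, which ends with rpoA, had log2 fold changes of 0.37 to 0.77. Of the 11 genes of the S10 cluster, 7 had a probe set paired with 1 gene, rpoA included. Of these 7, 6 were higher in atrap and rps19 did not pass, at a log2 fold change of 0.39 (limma, adjusted p = 0.0551). The 6 were rpl14 at 0.77 ± 0.08, rpl36 at 0.55 ± 0.08, rpl16 at 0.51 ± 0.11, rpoA at 0.46 ± 0.09, rpl22 at 0.39 ± 0.08 and rps3 at 0.37 ± 0.08 (log2 fold change ± SE). All these except rpoA encode ribosomal proteins. The median of the 7 was 0.46, beside 0.11 over the 69 plastid-encoded genes and 0.03 over all probe sets. The count fell to 1 without atrap replicate 1, without atrap replicate 3 or without WT replicate 2, and to 2 without WT replicate 3. Within arrays, rpoA minus rpl36 overlapped between genotypes (0.55 ± 0.04 in atrap and 0.64 ± 0.10 in WT, SD, n = 3 each), whereas rpoA minus rpl14 was lower in every atrap array, by 0.32 (a description, since both pairs were chosen after their values were seen). On the far side of rpoA, petD of the cytochrome b6f complex read low and overlapped, with a log2 fold change of 0.11 ± 0.14 (limma, adjusted p = 0.652).

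**Figure D2:**
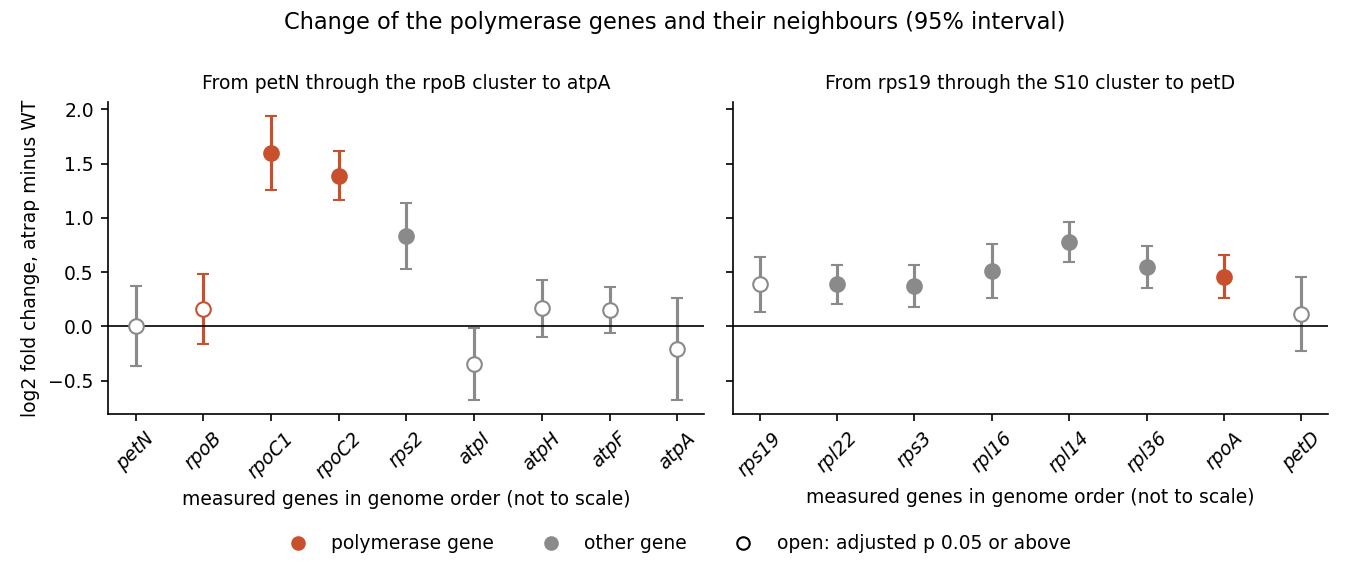
Log2 fold change, atrap minus WT (vertical axis), with its 95% interval for the measured genes around rpoB, rpoC1 and rpoC2 (left) and around rpoA (right), in genome order and not to scale; polymerase genes are red, and open symbols mark an adjusted p of 0.05 or above. In the left panel rpoC1, rpoC2 and rps2 stand at 1.59, 1.39 and 0.83 between genes that did not pass, and in the right panel the 7 genes from rps19 to rpoA lie between 0.37 and 0.77.

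Set against the other plastid-encoded genes, the polymerase genes held the highest rises and also, in rpoB, a gene that did not pass. Of the other 65, 18 were higher in atrap, 1 lower and 46 did not pass, with a median log2 fold change of 0.10. The count of 19 fell to 7 without atrap replicate 1, 10 without atrap replicate 3 and 6 without WT replicate 2. Next below rpoC2 came ndhD, for a subunit of the NDH complex, at 1.16 and ycf3, for a factor of photosystem I assembly, at 1.13. The ribosomal protein genes had a median of 0.39, and 10 of 15 passed, all higher. The photosystem genes had a median of -0.11, and 1 of 20 passed, psaC, for a photosystem I subunit, which was higher at 0.82. Beside these counts, 6.7% of all probe sets were higher in atrap and 6.41% lower by the same rule.

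The signal of each polymerase gene was also taken relative to the median of the 69 plastid-encoded genes in the same array. That median was 11.37, 10.99 and 11.39 in atrap, against 11.44, 11.36 and 11.31 in WT, so it overlapped and was lower by 0.12 on average in atrap. Relative to it, rpoC1 was 0.16 ± 0.18 in atrap and -1.55 ± 0.12 in WT, and rpoC2 was -1.68 ± 0.29 in atrap and -3.19 ± 0.18 in WT (SD, n = 3 each). These are differences of 1.71 and 1.51 without overlap (exact permutation p = 0.1 each). For rpoA the difference was 0.57, also without overlap (exact permutation p = 0.1), and for rpoB it was 0.28 with overlap (exact permutation p = 0.5). The same median was subtracted from all 4 genes of an array, so their order could not change. The median includes the 4 genes themselves, and in atrap replicate 3 it was the rpoC1 signal.

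**Figure D3:**
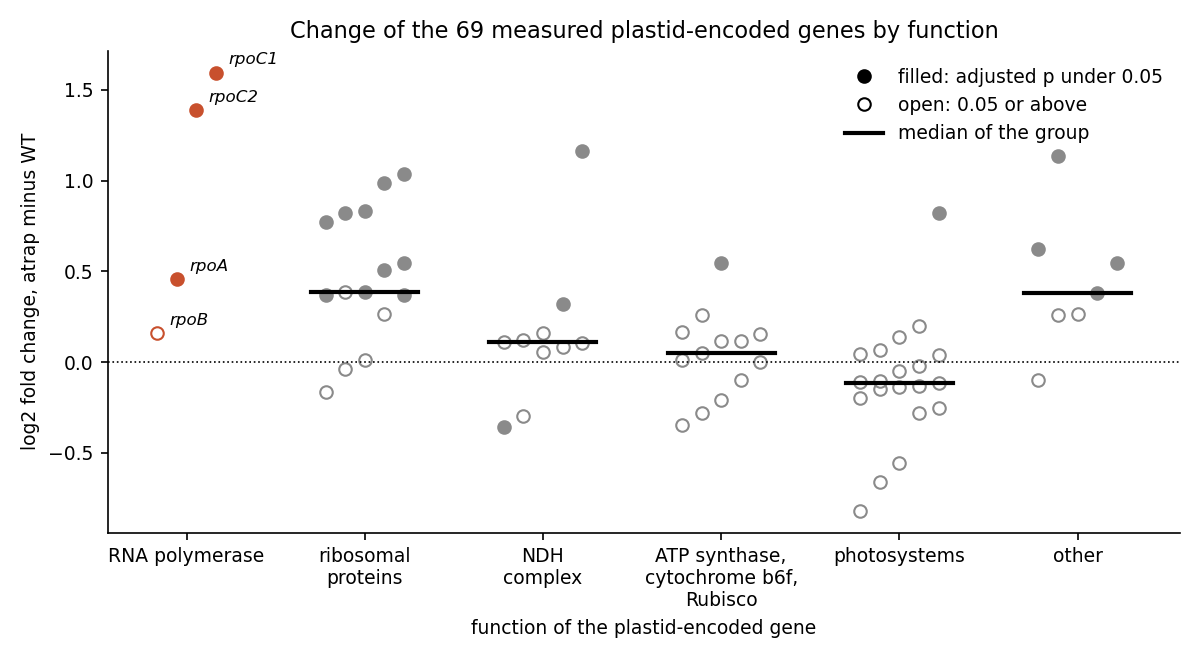
Log2 fold change, atrap minus WT (vertical axis), of the 69 measured plastid-encoded genes by function (horizontal axis), filled where the adjusted p was under 0.05, with a line at the median of each group of more than 4 genes. The polymerase genes rpoC1 and rpoC2 top the plot at 1.59 and 1.39, ribosomal protein genes have a median of 0.39 and photosystem genes a median of -0.11.

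Genes were then grouped by the polymerase that reads them. Apart from the rpoB operon, a selection of 4 genes with NEP promoters was listed, and it does not hold all genes that have them. Of these, accD and clpP had a probe set paired with 1 gene. They encode a subunit of acetyl-CoA carboxylase in fatty acid synthesis and a subunit of the Clp protease. Both were higher in atrap, accD at 0.55 ± 0.09 and clpP at 0.62 ± 0.08 (log2 fold change ± SE; limma, adjusted p = 0.0135 and 0.00896). Of 27 photosynthesis genes, a class read mostly by PEP, 2 were higher and 0 lower, a share near the 6.7% of all probe sets that were higher. These were rbcL, for the large subunit of Rubisco, at 0.55 and psaC at 0.82, and the median of the 27 was -0.10. The count was 1 without atrap replicate 1 and 0 without WT replicate 2. Their log2 fold changes ran from -0.82 for psbK to 0.82 for psaC. Of the 5 measured genes listed here as read by NEP, rpoC1 and rpoC2 lay above that range, and rpoB, accD and clpP lay inside it. The genes rpoB, rpoC1 and rpoC2 share an operon and are not separate cases. Other plastid-encoded genes were not sorted by promoter. The difference between the classes was not tested. As another organelle genome, the 16 mitochondrion-encoded genes had 0 past the threshold by limma and 0 by an unmoderated test, with 2 at an unadjusted p under 0.05 (nad1 and nad9, at -0.29 and -0.38). Their log2 fold changes ran from -0.38 to 0.22, and 10 of the 16 had a WT mean under log2 6, where changes are compressed.

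The nuclear partners of the enzyme were mostly outside the gene table used here. Of 33 nuclear genes on 4 lists, 2 had a probe set paired with 1 gene. The lists covered 15 proteins associated with the polymerase, 6 sigma factors, 3 phage-type polymerases and 9 factors that edit, cleave or degrade plastid RNA. RPOTMP (AT5G15700), a phage-type polymerase of mitochondria and plastids, averaged 5.37 in atrap and 5.11 in WT, and it did not pass (log2 fold change 0.26 ± 0.11 SE; limma, adjusted p = 0.163). YS1 (AT3G22690), which is needed for editing of the rpoB transcript, had a log2 fold change of 0.0047 ± 0.08 (SE; limma, adjusted p = 0.976), with both genotypes low in the range at 4.60. The other 31 genes, among them all sigma factors, were not analysed here.

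Genes with the most similar profile were found by the root mean square difference over the 6 arrays, after centring each gene on its own mean. For rpoC1 the nearest of the 68 other plastid-encoded genes were rpoC2 at 0.21, ndhD at 0.29 and ycf3 at 0.31 log2 units. For rpoC2 they were ndhD at 0.15, rpoC1 at 0.21 and ycf3 at 0.22. Among genes of any genome, JAL34, a jacalin-related lectin, lay nearest to rpoC1 at 0.08, followed by THI2.2, a thionin, at 0.12 and rpoC2 at 0.21. For rpoC2 these were AT4G11190 at 0.11, AT1G57770 at 0.12 and THI2.2 at 0.13. Few profiles lay within 0.15 log2 units: 2 of 13512 probe sets for rpoC1 and 4 for rpoC2.

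Many profiles lay near those of rpoA and rpoB, whose changes were smaller. The distance was not scaled to the size of a change, so such counts partly restate the log2 fold changes. Within 0.15 log2 units lay 1093 of the 13512 probe sets for rpoA and 1262 for rpoB. The plastid-encoded genes nearest to rpoA were rbcL at 0.07, rpl22 at 0.07 and rpl36 at 0.08, the last 2 from its own cluster. Those nearest to rpoB were psaA, for a core protein of photosystem I, at 0.07, petN at 0.11 and petD at 0.14, none of which passed. Among genes of any genome, AT3G16750, AT3G15910 and AT2G44920 lay nearest to rpoA and AT3G22710, AT4G25920 and AT1G12720 nearest to rpoB. The nearest distances were 0.04 for rpoA and 0.02 for rpoB. All these profiles share the same 6 arrays and the same normalization, and they are given as a description.

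**Figure D4:**
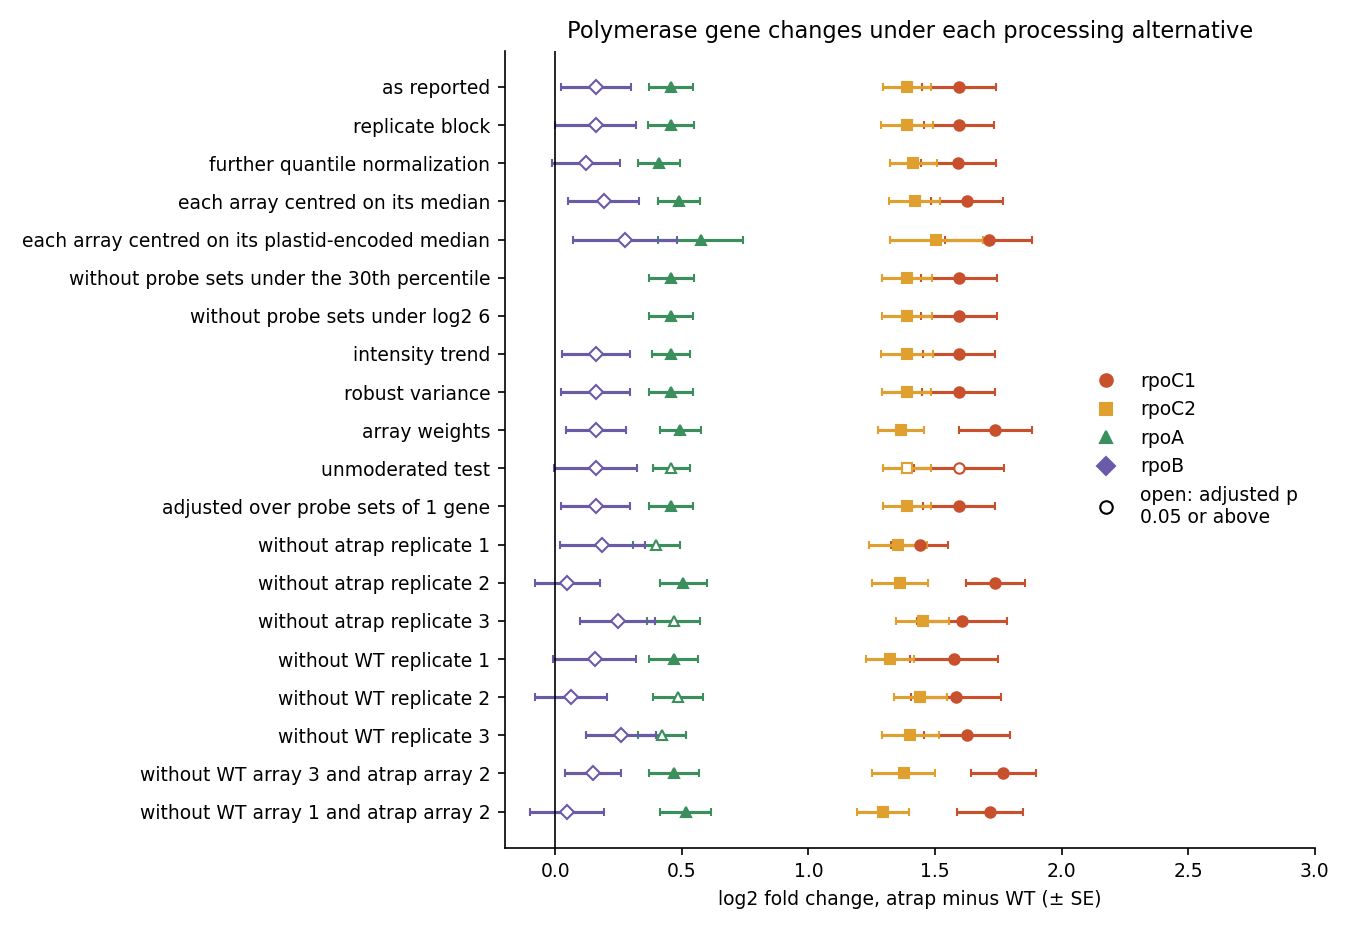
Log2 fold change, atrap minus WT, with its standard error (horizontal axis) of the 4 polymerase genes under each processing alternative (rows), open where the adjusted p was 0.05 or above. The values of rpoC1 (1.44 to 1.77) and rpoC2 (up to 1.51) stay apart from those of rpoA (0.40 to 0.57) and rpoB (0.04 to 0.28) throughout, rpoA loses its call under 5 alternatives, and rpoC1 and rpoC2 lose theirs under the unmoderated test alone.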

How the data were processed

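The deposited table holds log2 expression values per probe set for the 6 arrays, made by the authors with RMA per the submitters' processing notes. For the RMA software and the probe set definition, nothing was given in the sources used here. From the range of values, 3.12 to 15.01, a log2 scale was inferred. Because RMA equalises the arrays it removes any change shared by all transcripts, and it compresses changes at low signal. Precision is limited by the number of arrays, which have no read depth.

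Sample titles gave the groups and the replicate numbers. After 64 control probe sets were left out, 22746 entered a test in limma 3.58.1 (R 4.3.3; a linear model with eBayes moderation, two-sided, adjusted over all of them by Benjamini-Hochberg and called at 0.05), with no dim filter and no replicate block. Gene names came from the array's gene table and were updated by gene number from a list of TAIR10.1 genes that held 13436 of the 13513 probe sets with 1 gene. That list gave genome order, and mitochondrial genes were matched by symbol. Probe sets paired with several genes were not named.

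The members, lists and tests were chosen with earlier results of these data known. Named genes were the members, RAP, genome neighbours, all measured genes of lists of at most 12 (up to 4 called, or 2 with the smallest p, of longer ones) and the 3 nearest profiles per member. ndhD and ycf3 (as ranked below rpoC2), psbK and the differences between rpoA and its neighbours were chosen after their values were seen. Scripts were tested on simulated data. Permutation tests used scipy 1.17.1 in Python 3.11.15. Alternatives were a replicate block, further quantile normalization, centring on the array or plastid-encoded median, and dim filters at the 30th percentile and log2 6. Others were array weights, robust variance, an intensity trend, an unmoderated test, fitting and adjusting only probe sets of 1 gene, and leaving out arrays.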

Additional observations from a re-analysis of the deposited data

How the results depend on the processing

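Of 74 values of the 4 polymerase genes under alternatives, 67 kept direction and call and 0 reversed. With the unmoderated test 0 of the 4 genes passed, where rpoC1 (1.59), rpoC2 (1.39) and rpoA (0.46) had adjusted p of 0.0585, 0.0511 and 0.0826. Leaving out 1 array gave 0.40 to 0.51 for rpoA, which lost its call in 4 of 6 cases, 1.44 to 1.74 for rpoC1, 1.32 to 1.45 for rpoC2 and 0.05 to 0.26 for rpoB, and 2 to 3 genes passed. Both dim filters removed rpoB, which then had no value. Centring on the plastid-encoded median raised every change by 0.12.

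The array-wide count of 2981 was 1903 with plastid-encoded centring, 5325 with array weights, 48 with the unmoderated test, 4483 without WT array 1 and atrap array 2, and 1541 when only 1-gene probe sets were adjusted. Leaving out 1 array gave 350 (atrap replicate 1) to 3863 (WT replicate 1), and 629 for atrap replicate 3, 438 for WT replicate 2 and 1260 for WT replicate 3. In the 1-gene count only the 13513 probe sets paired with 1 gene were fitted and adjusted, so no others could be counted. For the other counts the cause was not tested. With 1 array left out, 1 to 7 genes passed in the S10 cluster, 0 to 2 among photosynthesis genes and 6 to 20 among other plastid-encoded genes. Of 48 pair differences, 47 moved by less than the spread, and rpoC2 minus rpoA was 0.78 without WT array 1 and atrap array 2.

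With the replicate block, 2101 probe sets passed, 1931 of them shared with the 2981, and rpoC1, rpoC2 and rpoA kept their calls at adjusted p of 0.0170, 0.0148 and 0.0428 (limma). The labels do not say that replicate numbers pair plants, so the numbers were not taken to pair them. Arrays with the same number deviated from their group means with correlations of 0.13, 0.02 and -0.15. Arrays with unlike numbers gave -0.19 to 0.16, and so few arrays cannot settle pairing.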
